A study of Mus musculus with 9 samples.

Results

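The genes described here are 9 apolipoproteins and lipid transport genes of glia: the secreted carriers Apoe, Clu and Apod, the efflux pumps Abca1 and Abcg1, the enzyme Lcat, the uptake receptor Lrp1 and the sterol-sensing nuclear receptors Nr1h2 and Nr1h3. They were chosen by name, and a measured value entered only where a gene has several probe sets, which are selected by the highest mean over all arrays. Of the 9, 8 were measured, each by 1 probe set, out of 19938 genes in all. Nr1h2 is not named as the 1 symbol of a probe set in the annotation used here and was not analysed here. The set was drawn up when the changes of Apoe and Clu in these arrays were already known, so their calls below describe the arrays and are no independent evidence.

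The arrays compare cells of the brain ventricular zone, the layer lining the ventricles, from newborn mice of strain C57BL/Ka that differ in Prdm16, a transcription regulator of stem cells and brown fat. The groups are Prdm16LacZ/LacZ (KO, 0 wild-type alleles), Prdm16LacZ/+ (HET, 1 allele) and Prdm16+/+ (WT, 2 alleles), with 3 Affymetrix Mouse Gene ST 1.0 arrays each; the cells were neither cultured nor treated. The comparisons ask which transcripts change when both alleles are lost (KO against WT), when the remaining allele is lost (KO against HET) and when 1 allele is lost (HET against WT). The labels do not say whether the arrays of a genotype came from separate pups or litters, or how the LacZ allele alters the gene, so the p-values cover the variation among these arrays alone, and part or all of it may be technical.

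Neurons of the brain obtain much of their cholesterol from glia. Astrocytes and radial glia load cholesterol and phospholipid onto apolipoprotein E through the membrane pumps ABCA1 and ABCG1, LCAT esterifies the cholesterol on the secreted particle, and receptors of the LDL receptor family such as LRP1 take the particle up. The liver X receptors, NR1H2 and NR1H3, sense oxidised sterols and switch on Apoe, Abca1 and Abcg1. Clusterin, also called apolipoprotein J, is a second abundant carrier and chaperone of astrocytes, and apolipoprotein D belongs to the lipocalins, small carriers of lipids and other hydrophobic molecules.

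Prdm16 itself lay at 5.69, 6.41 and 6.17 in KO, 6.995, 7.34 and 6.998 in HET and 7.62, 7.57 and 7.23 in WT, as deposited log2 values. It was lower in KO than in WT by a log2 change of -1.38 (SE 0.18, limma adjusted p = 0.010), a call lost without WT replicate 1, without WT replicate 2 and with the HET arrays left out of the fit. The sources used here do not place its probes against the LacZ allele. Array medians lay between 5.80 and 5.92. Correlations across probe sets were 0.989 to 0.996 within genotypes and 0.988 to 0.995 between them. Genes varied least among WT arrays, with a median SD of 0.130 in KO, 0.117 in HET and 0.0769 in WT, and limma gave KO replicate 2 (0.364) and HET replicate 1 (0.547) the lowest array weights. Of 15 measured radial glia markers, 1 (Hopx) was under the lower quartile on all 9 arrays, and of 14 neuronal markers 1 (Neurod6) did, so transcripts of both kinds of cell were present. In such bulk RNA, fewer cells of a type and less RNA per cell cannot be told apart.

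Apoe and Clu were lower in every KO array than in any HET or WT array, and the other 6 measured genes overlapped between all genotypes. In KO against WT, 2 of 8 genes fell, 0 rose and 6 did not pass the test. A call is an adjusted p under 0.05 in limma with Benjamini-Hochberg adjustment over all 19938 genes, and 0.451% of all genes were called in KO against WT, 0.286% downward. In KO against HET the same 2 genes fell and 0 rose, where 0.206% of all genes were called. In HET against WT none of the 8 was called or had an unadjusted p under 0.05, and 0% of all genes were called by limma, with 808 of the 19938 at an unadjusted p under 0.05. The median log2 change of the 8 genes was -0.071 in KO against WT, -0.026 in KO against HET and 0.0059 in HET against WT, beside 0.0064, 0.0029 and 0.0039 over all genes.

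**Figure D1:**
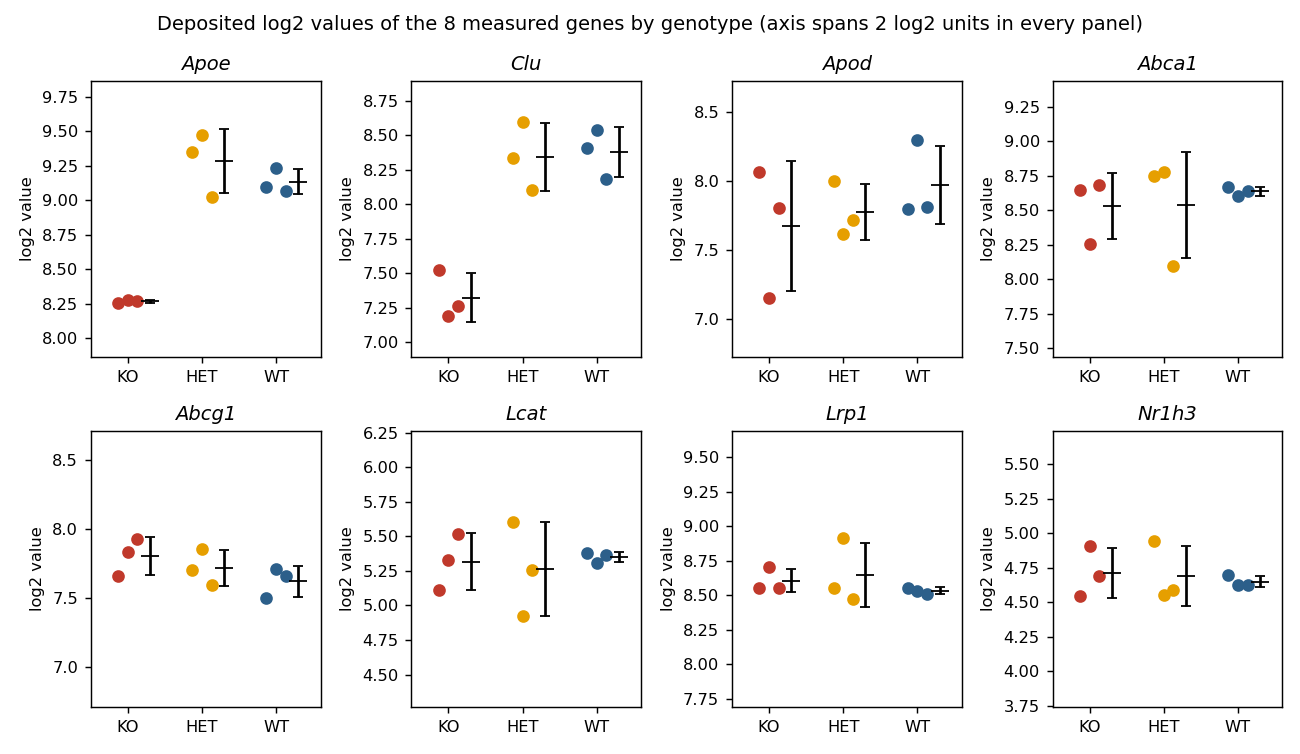
Deposited log2 values of the 8 measured genes on each array. Points are arrays in KO, HET and WT, the bar beside them is the mean and SD (n = 3), and each vertical axis spans 2 log2 units. The KO arrays of Apoe (8.25 to 8.28) and Clu (7.19 to 7.52) lie below all HET and WT arrays, while the genotypes overlap for the other 6 genes.

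Apoe, the main lipid carrier secreted by glia, lay at 8.25, 8.28 and 8.27 in KO, 9.35, 9.47 and 9.02 in HET and 9.09, 9.23 and 9.07 in WT. The KO arrays were nearly alike and lay below all arrays of the other genotypes, whereas HET and WT overlapped. The KO mean was 8.27 ± 0.012 (SD, n = 3), against 9.28 ± 0.23 in HET and 9.13 ± 0.090 in WT. Apoe was 1.82-fold lower in KO than in WT (limma adjusted p = 0.0090, with a log2 change of -0.86 and SE 0.11). It was 2.02-fold lower in KO than in HET (log2 change -1.01, SE 0.11, adjusted p = 0.0053 in the same limma fit).

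Clu, which encodes clusterin, lay at 7.52, 7.19 and 7.26 in KO, 8.34, 8.59 and 8.10 in HET and 8.41, 8.54 and 8.18 in WT. All KO arrays were low, below every other array, and HET and WT overlapped. Clu was 2.07-fold lower in KO than in WT (limma adjusted p = 0.012, with a log2 change of -1.05 and SE 0.14). It was 2.03-fold lower in KO than in HET (log2 change -1.02, SE 0.14, limma adjusted p = 0.023). Every KO array lay below every WT array for 4.34% of all genes and below every HET array for 3.09%.

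HET arrays overlapped WT arrays for both genes. The HET minus WT change of Apoe was 0.15 (SE 0.11), with a 95% interval of -0.095 to 0.39, and that of Clu was -0.033 (SE 0.14), with an interval of -0.35 to 0.28. Against the midpoint of the WT and KO means, the level expected if log2 values followed the number of alleles, HET lay higher by 0.58 (SE 0.095) for Apoe and 0.49 (SE 0.12) for Clu. Neither departure passed over all genes (limma with Benjamini-Hochberg adjusted p = 0.35 and 0.93), nor did any other gene: 0% were called by limma in that comparison, with 952 genes at an unadjusted p under 0.05. By unadjusted p, Apoe ranked 5 and Clu 43 of the 19938 genes there. The KO mean enters this comparison and the falls of both genes in KO were known beforehand, so the ranks are no separate evidence. Prdm16 itself lay 0.36 below WT in HET (SE 0.18) and 1.02 below HET in KO (SE 0.18), neither of which passed; the KO against HET change was called with array weights (adjusted p = 0.047) and quantile normalization (0.039).

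The calls of these 2 genes rested on single arrays in part, while their size hardly moved. For Apoe, leaving out WT replicate 1 (limma adjusted p = 0.057), WT replicate 2 (0.063), or the pair HET replicate 1 and KO replicate 2 (0.057) ended the call in KO against WT, and the change stayed between -0.90 and -0.81. For Clu, leaving out KO replicate 2 (adjusted p = 0.057), KO replicate 3 (0.071), WT replicate 1 (0.084), WT replicate 2 (0.075), or that pair (0.093) ended it, with changes of -1.15 to -0.97. In KO against HET, Apoe lost the call with only those 6 arrays in the fit (0.072) and without that pair (0.062). There, Clu lost it with only those 6 arrays (0.14), with array weights (0.077), and without KO replicate 2 (0.10), KO replicate 3 (0.12), HET replicate 2 (0.12), WT replicate 1 (0.067), or that pair (0.12). The KO minus HET change lay between -1.14 and -0.92 for Apoe and between -1.14 and -0.89 for Clu in all 19 alternatives.

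Apod, the lipocalin carrier, lay at 8.07, 7.15 and 7.80 in KO, 7.998, 7.61 and 7.71 in HET and 7.80, 8.30 and 7.81 in WT. KO replicate 2 was the lowest and WT replicate 2 the highest, and the genotypes overlapped. Its KO minus WT change of -0.30 (SE 0.22) had a 95% interval of -0.78 to 0.19 and did not pass. That interval is the widest among the 8 genes in this comparison, and the changes of Apoe and Clu lie outside it. Over 19 alternatives the change lay between -0.49 and -0.034.

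The efflux pumps did not pass in any comparison. Abca1, which moves cholesterol and phospholipid onto lipid-poor apolipoproteins, lay at 8.65, 8.25 and 8.68 in KO, 8.75, 8.77 and 8.10 in HET and 8.67, 8.60 and 8.64 in WT. KO replicate 2 and HET replicate 3 were low, the WT arrays were close together, and the genotypes overlapped. The KO minus WT change was -0.11 (SE 0.18, 95% interval -0.50 to 0.28) and the KO minus HET change -0.011 (SE 0.18).

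Abcg1, which passes cholesterol to particles that already carry lipid, lay at 7.66, 7.83 and 7.93 in KO, 7.71, 7.86 and 7.60 in HET and 7.50, 7.72 and 7.66 in WT. KO replicate 3 was the highest and WT replicate 1 the lowest, with overlap between all genotypes. Its KO minus WT change was 0.18 (SE 0.10, 95% interval -0.043 to 0.41), which has the opposite sign to that of Apoe and did not pass (limma with Benjamini-Hochberg adjusted p = 0.91).

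**Figure D2:**
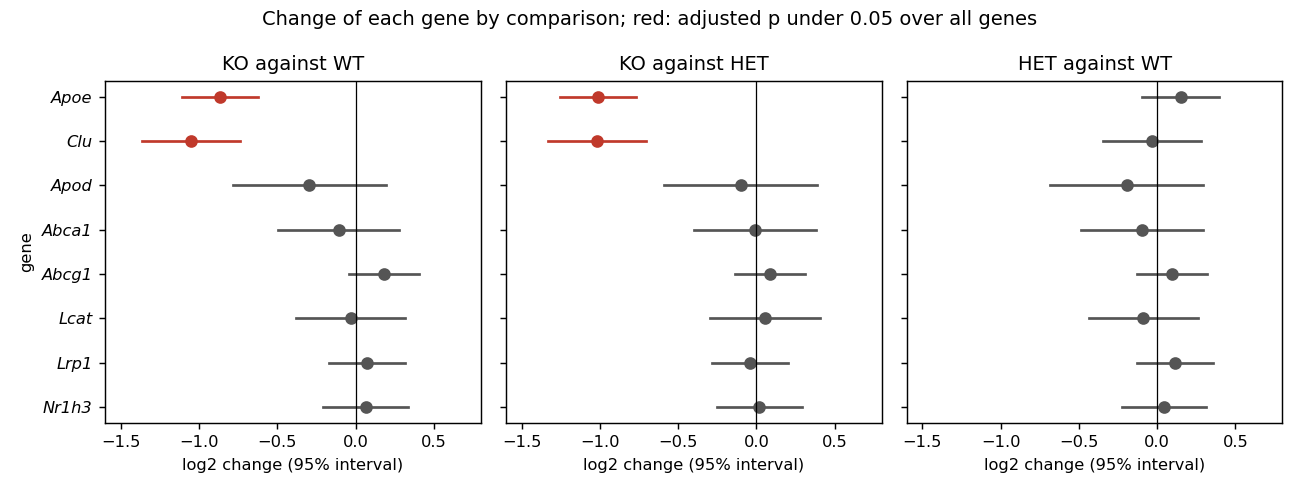
Log2 change of each of the 8 genes in KO against WT, KO against HET and HET against WT, with its 95% interval from the limma fit. Red marks an adjusted p under 0.05 over all genes: Apoe and Clu lie near -1 in both KO comparisons (-1.05 to -0.86), and the intervals of all other changes include 0.

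The start regions of Apoe and Abca1 are shown because both are known targets of the liver X receptors and Apoe fell while Abca1 did not pass. The sequences are the 250 bases before the start, 5′ to 3′ on the strand of the gene, from RefSeq on GRCm38.p6, which had windows for 7 of the 9 genes; Apoe had 3 start windows, of which the farthest upstream is shown. Capitals mark matches, on either strand, to the TATA box letters TATAAA, the CCAAT box, the Sp-factor letters GGGCGG, the nuclear receptor half-site AGGTCA and the direct repeat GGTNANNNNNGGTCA, a loosened form of the repeat that liver X receptors bind, written with the Abca1 window in view. The first lies at chr7:19699189-19699438 and the second at chr4:53159896-53160145, both on the minus strand.
Apoe: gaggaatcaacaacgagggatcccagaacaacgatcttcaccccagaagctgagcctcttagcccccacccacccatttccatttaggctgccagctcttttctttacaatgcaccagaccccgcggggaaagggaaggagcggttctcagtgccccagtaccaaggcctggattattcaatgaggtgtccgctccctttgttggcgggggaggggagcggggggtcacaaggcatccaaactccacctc
Abca1: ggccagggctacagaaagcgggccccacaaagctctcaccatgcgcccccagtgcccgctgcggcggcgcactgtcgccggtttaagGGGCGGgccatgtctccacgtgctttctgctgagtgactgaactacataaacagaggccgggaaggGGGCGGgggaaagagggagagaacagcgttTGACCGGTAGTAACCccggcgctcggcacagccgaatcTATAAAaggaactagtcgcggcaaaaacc

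The Abca1 window held 2 copies of GGGCGG, starting 163 and 97 bases before the start, 1 direct repeat on the opposite strand at 67 and 1 TATAAA at 29. The Apoe window shown held none of the 5 motifs, which says only that these letters are not in it. Of the other Apoe windows, 1 held TATAAA at 2 places, 100 bases before its start on the opposite strand and 96 on the same strand. Of 32851 windows of that length, 12.4% held the TATA box letters, 33.8% the CCAAT box, 32.7% the Sp-factor letters, 14.0% the half-site and 0.177% the direct repeat, with which the half-site can overlap. As background, the elements through which liver X receptors act on Apoe are known to lie in enhancers away from this window.

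Lcat, which esterifies the cholesterol of secreted particles, lay at 5.11, 5.33 and 5.52 in KO, 5.61, 4.92 and 5.26 in HET and 5.38, 5.31 and 5.36 in WT. The HET arrays spanned the widest range and held both the highest and the lowest value. The KO minus WT change was -0.033 (SE 0.16, 95% interval -0.38 to 0.32). Lcat stood at the 32.3 to 44.2 percentile of the probe sets of an array, where a value can hold background as well as transcript, since detection calls were not used here.

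Lrp1, the large endocytic receptor that takes up Apoe particles, lay at 8.55, 8.70 and 8.55 in KO, 8.55, 8.91 and 8.47 in HET and 8.55, 8.53 and 8.50 in WT. HET replicate 2 was the highest and HET replicate 3 the lowest. The KO minus WT change was 0.073 (SE 0.11), with a 95% interval of -0.17 to 0.32, which leaves out a fall of the size seen for Apoe. In the deposited values, 4 arrays (KO replicates 1 and 3, HET replicate 1 and WT replicate 1) held an identical value of Lrp1, as 4 or more arrays did for 19.1% of all genes.

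Nr1h3, the liver X receptor alpha, lay at 4.54, 4.91 and 4.69 in KO, 4.94, 4.55 and 4.59 in HET and 4.70, 4.63 and 4.63 in WT. The genotypes overlapped fully, with a KO minus WT change of 0.064 (SE 0.12, 95% interval -0.21 to 0.33). The gene stood at the 24.4 to 30.1 percentile of an array, close to the lower quartile, so a change of its transcript might not be seen. WT replicates 2 and 3 held an identical value, as at least 2 arrays did for 62.9% of genes.

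Within the HET group the arrays were ordered alike for several of these genes. HET replicate 2 was the highest and HET replicate 3 the lowest HET array for Apoe, Clu, Abca1, Abcg1 and Lrp1, that is for 5 of 8 genes (62.5%), against 11.6% of all genes, an order singled out after its values were seen. With the genotype means removed, Apoe correlated across the 9 arrays with Clu at r = 0.76, with Lrp1 at 0.74, with Abca1 at 0.73 and with Abcg1 at 0.66, while Lcat (-0.21), Nr1h3 (0.13) and Apod (0.14) were far from it. The deviations of Apoe from its genotype means ran from -0.26 to 0.19 in HET, -0.063 to 0.10 in WT and -0.013 to 0.010 in KO. The HET arrays therefore weigh most in these correlations, which are no separate observation from the HET order above. The correlations describe 9 arrays that share processing and any difference in cell content, and carry no test. Without this centring, Apoe and Clu correlated at r = 0.97, which their common fall in KO enters.

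Over all genes, the ones most like Apoe across the 9 arrays were Cst3, the secreted protease inhibitor cystatin C (r = 0.98), Fxyd1, a regulator of the sodium pump (0.97), Plpp3, a lipid phosphate phosphatase (0.97), Clu (0.97) and Aldh9a1, an aldehyde dehydrogenase (0.96). Those most like Clu were Htra1, a secreted serine protease (r = 0.98), Plpp3 (0.98), Fxyd1 (0.98), Cst3 (0.97) and Iqcg, a protein of motile cilia and sperm tails (0.97). All 6 genes besides Clu had KO arrays below every HET and WT array and fell in both KO comparisons by limma with Benjamini-Hochberg adjustment. These 6 genes had a limma adjusted p of 0.0030 (Fxyd1) to 0.044 (Plpp3 and Iqcg) in KO against HET, with no alternatives given for them there. Their KO minus WT changes were -1.24 for Iqcg, -1.09 for Fxyd1, -1.07 for Htra1, -0.77 for Plpp3, -0.61 for Aldh9a1 and -0.43 for Cst3. The KO mean of Iqcg, 4.32, lay below the lower quartiles of the arrays, 4.53 to 4.68, so its KO level could be background as well as transcript. The KO against WT call ended in 13 of 19 alternatives for Cst3, including each array left out, in 9 for Aldh9a1 (among them each KO and each WT array left out), in 7 for Plpp3 (among them each KO array and WT replicate 1 or 2), in 8 of 18 for Iqcg (among them KO replicate 2 or 3, HET replicate 2 or any WT array), in 2 for Htra1 (WT replicate 1 or 2) and in 0 for Fxyd1. Their HET minus WT changes lay between -0.075 and 0.066, and likeness measured on the same arrays favours genes with this pattern.

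**Figure D3:**
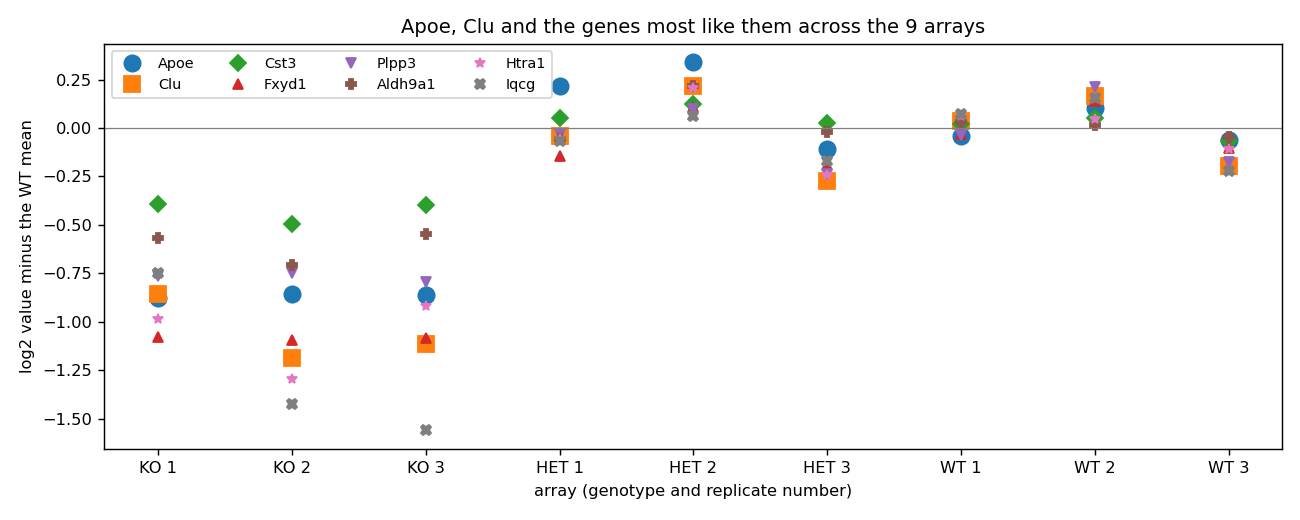
Log2 value minus the WT mean of Apoe, Clu and the 6 other genes most like them, for each array in KO, HET and WT. All 8 genes lie below 0 in the KO arrays, and the HET and WT arrays lie on both sides of 0. KO minus WT changes run from -1.24 for Iqcg to -0.43 for Cst3, and HET minus WT changes from -0.075 for Fxyd1 to 0.15 for Apoe.

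Markers of astrocytes and ependymal cells, which make these carriers, were lower in summed level in KO. The summed linear level of 14 astrocyte markers was 5488 to 6100 in KO arrays, 6270 to 7876 in HET arrays and 6671 to 7610 in WT arrays, so KO lay below both without overlap. None of the 14 lay below the lower quartile on all arrays. Yet the Gfap means in KO (4.66) and HET (4.61) lay within the range of the array lower quartiles (4.53 to 4.68). So did the genotype means of Gjb6 (4.58 to 4.62), and these levels could be background as well as transcript. In KO against WT, 10 of the 14 lay below 0 with a median of -0.22, where 47.3% of all genes lay below 0. In HET against WT 8 did, with a median of -0.036. The other 4 of the 14 lay above 0 in KO against WT, and none passed. They were Aldh1l1 (0.21, SE 0.12), Fgfr3 (0.066), S100b (0.055) and Gjb6 (0.044). Every KO array of Aldh1l1 lay above every WT array. Of the 14, 1 fell in KO against WT, the water channel Aqp4 (log2 change -1.02, SE 0.17), while the glutamate transporter Slc1a2 lay at -0.62 (SE 0.12) and did not pass. Slc1a2 was called with the replicate block (adjusted p = 0.047), with array weights (0.047) and without HET replicate 3 (0.044). The call of Aqp4 ended in 10 of 19 alternatives, including any 1 array left out other than KO replicate 2 or HET replicate 2. In KO against HET, 1 fell, the gap junction gene Gja1 (-1.35, SE 0.21, limma adjusted p = 0.041), with no alternatives given for that call. Gja1 lay at -1.03 (SE 0.21) in KO against WT and did not pass there (limma adjusted p = 0.088). The part of these glia in the falls of Apoe and Clu was not tested.

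Ependymal and motile cilia markers, of cells that also make clusterin, had a summed level of 1248 to 1526 in KO arrays, 1568 to 1829 in HET arrays and 1755 to 1862 in WT arrays. Of 19 genes, 18 lay below 0 in KO against WT (median -0.20), where 47.3% of all genes did. As many as 18 also lay below 0 in HET against WT (median -0.10), where 48.5% of all genes did, and both comparisons share the WT arrays. In KO against WT 0 were called by limma with 10 at an unadjusted p under 0.05 (6.15% of all genes). Only 1 was below the lower quartile everywhere (Spag16). Rsph4a, a radial spoke protein, fell in KO against HET (-1.19, SE 0.19, limma adjusted p = 0.044), with no alternatives given for that call. Its KO against WT change of -0.96 (SE 0.19) did not pass (limma adjusted p = 0.077) and was called in 0 of 19 alternatives. Enkur lay at -1.18 (SE 0.22) in KO against WT and did not pass. Enkur was called there in 5 of 19 alternatives: the replicate block (adjusted p = 0.018), eBayes with trend and robust settings (0.049), the dimmest genes left out (0.040), quantile normalization (0.039) and KO replicate 1 left out (0.0028). Their part in the falls was not tested either.

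Other cells that make Apoe, Clu or Apod overlapped between KO and WT in summed level. The 15 radial glia markers summed to 10180 to 11020 in KO, 9967 to 13070 in HET and 10570 to 12230 in WT. Such a sum is weighted towards its brightest genes, here Fabp7 (mean 11.8 in KO and 11.9 in WT). In KO against WT, 10 of the 15 lay below 0 (median -0.080), where 47.3% of all genes did. There, 0 were called by limma and 4 had an unadjusted p under 0.05, where 6.15% of all genes did. All 4 lay below 0: Prom1 (-0.57), Lhx2 (-0.42), Pax6 (-0.41) and Ptprz1 (-0.30). The 17 microglia and macrophage markers, whose cells make Apoe, summed to 1113 to 1212 in KO, 1118 to 1131 in HET and 1080 to 1166 in WT. None was called or had an unadjusted p under 0.05 in KO against WT, and 1 (Itgam) was below the lower quartile everywhere. Choroid plexus markers, 12 genes, summed to 684.6 to 737.8 in KO, 604.5 to 906.0 in HET and 705.8 to 725.0 in WT, with 7 below 0 in KO against WT. There was 1 rise in KO against WT, of the clotting factor F5 (0.89, SE 0.10), and the same 1 in KO against HET (0.99, SE 0.10). The F5 means of 4.42 in WT and 4.32 in HET lay below the lower quartiles of the arrays (4.53 to 4.68), so these levels could be background as well as transcript.

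Meningeal and fibroblast markers, of cells that make Apod, summed to 604.0 to 717.7 in KO, 660.2 to 793.7 in HET and 709.9 to 771.8 in WT over 12 genes, with 1 fall in KO against WT, of the proteoglycan Ogn (-1.37, SE 0.19; not called without WT replicate 1, WT replicate 2 or the pair HET replicate 1 and KO replicate 2, nor with only the KO and WT arrays), and 3 genes (Lum, Aldh1a2, Foxc1) below the lower quartile everywhere. Summed levels also overlapped between KO and WT for pericytes (9 genes, 895.5 to 930.0 in KO and 872.8 to 927.3 in WT), endothelial cells (11 genes, 833.9 to 1007 in KO and 859.6 to 876.0 in WT), the oligodendrocyte lineage (11 genes, 598.9 to 656.7 in KO and 608.6 to 664.2 in WT), neurons (14 genes, 12470 to 13450 in KO and 12430 to 13030 in WT) and red blood cells (4 genes, 185.7 to 212.9 in KO and 205.4 to 222.4 in WT). None of the genes of these last 5 lists was called by limma in KO against WT, with 1, 1, 2, 5 and 0 at an unadjusted p under 0.05, beside 6.15% of all genes. Among neuronal genes, Tbr1, a cortical transcription factor, lay at -0.66 (SE 0.13; called only with quantile normalization of the 19 alternatives, adjusted p = 0.046) and the neurofilament Nefm at 0.44 (SE 0.11).

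Around the 8 genes, 138 further genes of lipoprotein, sterol and fatty acid handling were measured, in 8 lists. By limma 0 of them were called in KO against WT, in KO against HET or in HET against WT, with 17 (12.3%), 20 (14.5%) and 5 (3.62%) at an unadjusted p under 0.05, where 6.15%, 6.16% and 4.05% of all genes were. Their median log2 change was -0.029, 0.0013 and -0.016 in these comparisons, and 81 of the 138 lay below 0 in KO against WT, where 47.3% of all genes did.

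The other apolipoproteins, 16 genes, had a median KO minus WT change of -0.030, and 13 lay below 0, where 47.3% of all genes did. As many as 13 also lay below 0 in HET against WT (median -0.083), which shares the WT arrays. Against HET, 12 lay above 0 in KO (median 0.038). Apoc1, a small neighbour of Apoe in the same apolipoprotein cluster, lay at 5.33, 5.66 and 5.56 in KO, 5.71, 5.67 and 5.52 in HET and 5.69, 6.09 and 5.78 in WT. Every KO array was below every WT array, yet its change of -0.34 (SE 0.12) did not pass (limma with Benjamini-Hochberg adjusted p = 0.64). Apom, a carrier of sphingosine phosphate, lay at 0.20 (SE 0.12) and Apon at -0.14 (SE 0.093). Their genotype means, 4.31 to 4.51 and 3.77 to 3.94, lay below the lower quartiles of the arrays (4.53 to 4.68), so they could be background as well as transcript.

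Lipoprotein receptors and their partners, 19 genes, had a median of 0.018, with 6 below 0. Scarb1, the receptor of high-density lipoprotein, lay at 7.33, 7.34 and 7.49 in KO, 7.33, 7.39 and 7.38 in HET and 7.15, 7.22 and 7.06 in WT. It was above WT in every KO and HET array, with changes of 0.25 in KO and 0.22 in HET (SE 0.079 each) that did not pass; both share the WT arrays. Lrp1b, a relative of Lrp1, lay at 0.31 (SE 0.15) and Lrp12 at 0.22 (SE 0.12) in KO against WT.

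Of 24 other sterol and phospholipid transporters, 15 lay below 0 (median -0.036). Mfsd2a, the carrier of lysophosphatidylcholine with docosahexaenoic acid, lay at 7.36, 7.02 and 7.39 in KO, 7.73, 7.86 and 7.50 in HET and 7.88, 7.90 and 7.66 in WT. The KO arrays were all the lowest, with a change of -0.56 against WT (SE 0.13) that did not pass (limma with Benjamini-Hochberg adjusted p = 0.15). Abca8a lay at -0.54 (SE 0.15), called with array weights alone (adjusted p = 0.040), and the drug and urate pump Abcg2 at 0.37 (SE 0.14). The KO mean of Abca8a, 4.03, lay below the lower quartiles of the arrays (4.53 to 4.68), so it could be background as well as transcript.

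Among 16 partners and further targets of the liver X receptors the median was -0.050, and 10 lay below 0. Smpdl3a, a sphingomyelinase-like phosphodiesterase, lay at 8.32, 8.12 and 8.24 in KO, 8.66, 8.77 and 8.53 in HET and 8.996, 8.89 and 8.53 in WT. Its KO arrays lay below all others, and the change of -0.58 (SE 0.12) came nearest to the threshold of the 138 genes (limma with Benjamini-Hochberg adjusted p = 0.11). It was called in 2 of 19 alternatives, with quantile normalization (adjusted p = 0.033) and without WT replicate 3 (0.035). Lpcat3, which builds polyunsaturated phospholipids, lay at -0.22 (SE 0.095), and Nr1h4, the bile acid receptor, at -0.25 (SE 0.088). The Nr1h4 values, 3.69 to 4.21, lay below the lower quartiles of the arrays (4.53 to 4.68), so they could be background as well as transcript.

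Genes that make and break down sterols did not pass. Of 21 genes of cholesterol synthesis and its control, 0 had an unadjusted p under 0.05 in KO against WT, and changes ran from -0.24 for Hsd17b7 to 0.091 for Tm7sf2 around a median of -0.018. Insig1 and Insig2, which hold back the SREBP regulators, lay at -0.20 (SE 0.13) and -0.15 (SE 0.13). Among 15 genes of esterification, oxidation and lipases (median -0.055), Pon2, an intracellular lactonase, lay at -0.45 (SE 0.13), Lpcat2 at -0.21 (SE 0.098), and Lipa, the lysosomal acid lipase, at 0.24 (SE 0.096), and none passed.

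Fatty acid carriers and enzymes of glia, 25 genes, had a median of -0.076 in KO against WT and -0.13 in KO against HET, with 16 and 15 below 0. Acsbg1, an acyl-CoA synthetase of astrocytes, lay at 6.63, 7.21 and 6.80 in KO, 7.21, 7.57 and 7.26 in HET and 7.47, 7.39 and 7.27 in WT. KO replicate 2 and HET replicate 1 shared a value, and every KO array lay below every WT array. Its change of -0.50 (SE 0.15) did not pass, except with array weights (adjusted p = 0.037), nor did those of Elovl5, a fatty acid elongase (-0.32, SE 0.10), and Dbi, the acyl-CoA binding protein (-0.26, SE 0.093). The 7 relatives of clusterin and the lipocalins, with the lysosomal phospholipase Pla2g15, had a median of -0.0086, with Ptgds at -0.17 (SE 0.11), Rbp4 at 0.12 (SE 0.078) and Pla2g15 at -0.042 (SE 0.11). The genotype means of Rbp4, 3.87 to 3.99, lay below the lower quartiles of the arrays (4.53 to 4.68), so they could be background as well as transcript.

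**Figure D4:**
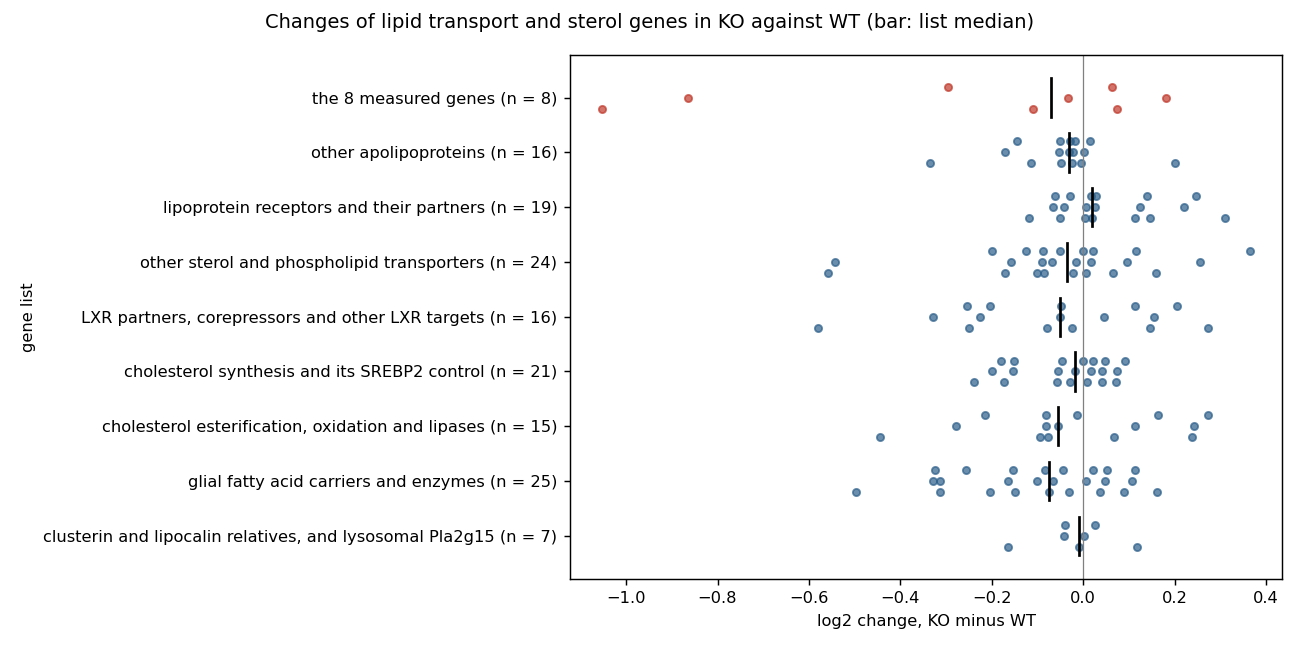
Log2 change in KO against WT of the 8 genes (red) and of the genes of 8 related lists (blue), 1 point per gene, with a bar at the median of the list. Clu (-1.05) and Apoe (-0.86) lie farther from 0 than any gene of the 8 lists, whose values end at -0.58 for Smpdl3a and 0.37 for Abcg2.

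HET and WT arrays overlapped for all 8 genes, and they did not overlap for 6.85% of all genes, so that a count of 0 among 8 is near the share over all genes. The HET minus WT changes of the 6 genes besides Apoe and Clu ran from -0.19 for Apod (SE 0.22) to 0.11 for Lrp1 (SE 0.11), and each 95% interval included 0.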

How the data were processed

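Log2 values that the authors deposited cover 28940 probe sets on 9 arrays, with none missing; per the submitters' processing notes RMA, affy and limma were used, without version or order, and the genome build and annotation of that step are not given in the sources used here. Per the labels' protocols, total RNA was amplified with a whole-transcript kit and hybridised as biotin-labelled cDNA. Probe sets were named from the platform annotation: 21789 had 1 symbol, 1621 several and 5530 none, and 21698 of the former matched the GRCm38.p6 gene table. The probe set with the highest mean represented each of 19938 genes, of which 999 had several.

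Tests used R 4.3.3 and limma 3.58.1 (lmFit, eBayes, two-sided, 95% intervals) on all 9 arrays in 1 fit with a mean per genotype, adjusted over all genes with Benjamini-Hochberg and checked on simulated data. The number of arrays limits the precision. Named genes were the 9 members, Prdm16, of each related list the genes called and the 3 lowest by unadjusted p (KO against WT), up to 2 per marker list, and the 5 most like Apoe or Clu. Tm7sf2, Gja1, Gfap, Gjb6, Aldh1l1, Fgfr3, S100b, Pax6, Ptprz1, Fabp7 and the markers named as below the lower quartile were named after their values were seen. No alternatives are given for these later-named genes. Summed levels are sums of antilogged values. Members and lists were chosen with earlier results of these data known. Alternatives are given in the closing section.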

Additional observations from a re-analysis of the deposited data

How the results depend on the processing

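The falls of Apoe and Clu in KO kept their direction under all 19 alternatives. The number of these genes called was 0 to 2 with 1 array left out in KO against WT and 1 to 2 in KO against HET, and 0 in both without HET replicate 1 and KO replicate 2 together. In KO against HET it was 0 with only the 6 arrays compared and 1 with array weights. Over all genes, KO against WT called 90 genes, 33 with only the WT and KO arrays, 151 with array weights, 50 without HET replicate 1 and KO replicate 2, and 23 to 77 with 1 array left out. KO against HET called 41 genes, 9 higher and 32 lower, and 8 with only its arrays, 21 with median centring (7 higher, 14 lower), 16 higher and 34 lower with quantile normalization, and 12 to 75 with 1 array left out. HET against the midpoint called 0, and 1 with array weights or quantile normalization, 2 without HET replicate 1 and KO replicate 2, and 0 to 3 with 1 array left out. HET against WT called 0 in every alternative. With the label's replicate number as a replicate block, the calls were 72 in KO against WT and 19 in KO against HET, and both Apoe and Clu kept their calls. Same-numbered arrays had deviations from their genotype means correlated at -0.34 to 0.056. Of the 9 arrays, 0 correlated best with their own number in both other genotypes. With 3 arrays per genotype these values cannot show whether the numbers pair arrays by litter or batch. For the members, 17 calls were lost in all and 0 gained, and for the other named genes 56 were lost and 15 gained; 43 member values that passed in no setting changed sign. The cause was not tested, beyond the smaller number of arrays where arrays were left out.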
